A study of Mus musculus with 34 samples.

Results

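The cholesterol synthesis group described here held 7 genes, *Srebf2*, *Hmgcs1*, *Sqle*, *Insig1*, *Idi1*, *Cyp51* and *Lss*, chosen by name from the 78298 genes of the deposited count table. All 7 passed the filter on low counts, as did 14980 genes in all. Expression was measured by bulk RNA-seq of whole liver from WT mice and from SIRTintKO mice, which lack *Sirt1* in the intestinal epithelium. The group had been proposed under the name of cholesterol synthesis and LDL uptake, but none of the 7 is a lipoprotein receptor, so uptake is described only through a separate list. By the study's methods, the knockouts carry floxed exon 4 of *Sirt1* with Cre under the Villin promoter, and their WT littermates carry the floxed allele without Cre. Mice were male, on a C57/Bl6 background and 8 to 12 weeks old. Livers were taken from untreated mice at 0 hours (WT, n = 6; SIRTintKO, n = 6) and at 6 hours (n = 6 and n = 5) or 24 hours (n = 4 and n = 7) after removal of 70% of the liver (partial hepatectomy, PHx).

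Cholesterol is made from acetyl-CoA through mevalonate, isoprenoids, squalene and lanosterol, and the liver is a main site of this synthesis. The transcription factor SREBP2, encoded by *Srebf2*, is held in the endoplasmic reticulum by SCAP and the INSIG proteins when sterols are plentiful. When sterols fall, it is cut, enters the nucleus and activates genes of synthesis and uptake, among them *Insig1* and *Srebf2* itself. Of the enzymes, *Hmgcs1* makes HMG-CoA from acetyl-CoA units, *Idi1* interconverts the isoprenoid building blocks, *Sqle* oxidises squalene, *Lss* closes the rings to give lanosterol, and *Cyp51* removes a methyl group from lanosterol.

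The promoters show what sequence these genes share in front of their starts. A promoter was found for 6 of the 7 members in the RefSeq table, on build GRCm38.p6, whereas the submitters' processing notes name GRCm39 for the counts. In the 250 bases before each annotated start, both strands were searched for the core of a sterol regulatory element (TCACNCCAC), an inverted CCAAT box (ATTGG), a GC box (GGGCGG) and an E-box (CACGTG), and no match overlapped another. The 4 promoters printed are those of the transcription factor, of the enzyme with the sterol regulatory element match, of the feedback gene *Insig1*, and of the ring-closing enzyme. They span chr15:82147019-82147268 (*Srebf2*), chr13:119690101-119690350 (*Hmgcs1*), chr5:28071162-28071411 (*Insig1*) and chr10:76531355-76531604 (*Lss*), all on the plus strand and directly upstream of the annotated start. Capitals mark the motif matches.
Srebf2: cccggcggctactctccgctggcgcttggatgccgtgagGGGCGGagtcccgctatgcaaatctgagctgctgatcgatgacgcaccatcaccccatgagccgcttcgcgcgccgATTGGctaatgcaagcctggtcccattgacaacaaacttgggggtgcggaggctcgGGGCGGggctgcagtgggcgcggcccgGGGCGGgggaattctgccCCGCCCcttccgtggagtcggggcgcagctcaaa
Hmgcs1: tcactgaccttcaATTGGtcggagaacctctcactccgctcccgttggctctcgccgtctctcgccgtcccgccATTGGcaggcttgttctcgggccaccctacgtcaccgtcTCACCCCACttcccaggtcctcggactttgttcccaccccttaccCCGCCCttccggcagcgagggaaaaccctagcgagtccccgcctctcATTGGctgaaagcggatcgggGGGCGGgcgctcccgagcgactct
Insig1: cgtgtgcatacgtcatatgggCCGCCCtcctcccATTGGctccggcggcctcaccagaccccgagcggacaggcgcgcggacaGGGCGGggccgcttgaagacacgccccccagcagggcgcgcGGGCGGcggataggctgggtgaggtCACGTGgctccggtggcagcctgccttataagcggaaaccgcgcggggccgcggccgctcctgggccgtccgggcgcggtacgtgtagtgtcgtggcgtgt
Lss: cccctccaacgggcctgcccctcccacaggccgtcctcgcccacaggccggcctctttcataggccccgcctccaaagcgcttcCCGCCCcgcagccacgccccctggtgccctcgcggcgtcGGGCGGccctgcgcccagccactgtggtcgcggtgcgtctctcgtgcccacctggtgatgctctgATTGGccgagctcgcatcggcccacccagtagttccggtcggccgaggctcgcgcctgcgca

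The inverted CCAAT box was found in 6 of the 6 member promoters and in 33.9% of 32841 promoters of that length. The GC box was likewise found in 6 of 6, against 32.7% of all promoters. The sterol regulatory element core was in the *Hmgcs1* promoter alone among the 6, 137 to 129 bases before the start, and in 1.05% of all promoters. The E-box was in the *Insig1* promoter alone, 101 to 96 bases before its start, and in 6.02% of all. *Idi1* held a pair of CCAAT boxes within 45 bases of its start, and *Cyp51* held its single CCAAT box on the opposite strand. These are exact matches of letters in a window and were not tested as binding sites. Variants of a motif were not sought, so a promoter without a match may still hold such an element.

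**Figure D1:**
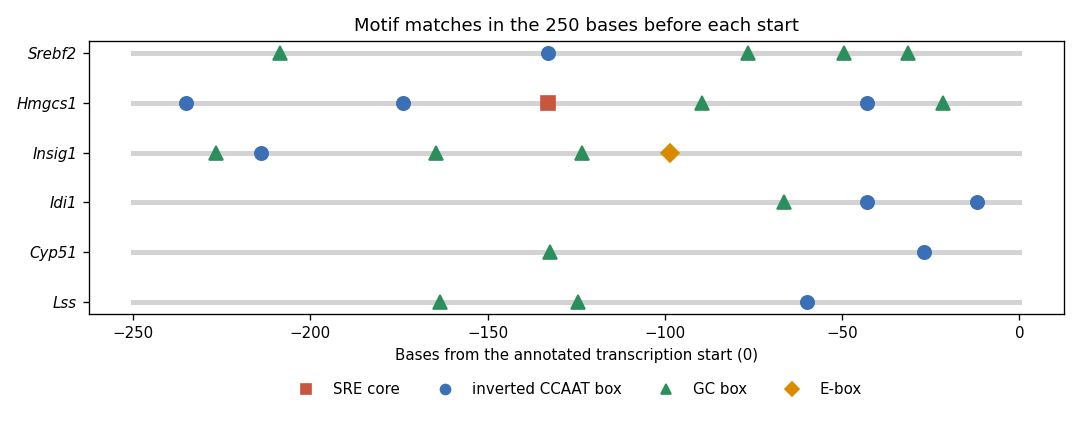
Motif matches in the 250 bases before the annotated start of 6 members (x axis, bases from the start; 1 row per gene; marker shape and colour give the motif). Every row carries a CCAAT box and a GC box, and the sterol regulatory element core appears in the *Hmgcs1* row only.

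Libraries held between 14892122 and 23480492 counts, and no member fell below 300 counts in a library, so counting error is small beside the spread between mice. *Sirt1* in whole liver, which the intestinal deletion does not target, ranged from 6.92 to 23.1 CPM (read counts scaled by TMM to a common library size, edgeR's CPM) and differed between genotypes by -0.02, -0.13 and -0.65 on the log2 scale at 0, 6 and 24 hours (edgeR adjusted p = 1, 0.933 and 0.0726). It therefore does not check the genotype labels. All 8 hepatocyte markers were detected in every group. Their summed level was 71800 to 80900 CPM in WT and 62300 to 86900 CPM in SIRTintKO livers at 0 hours, 38800 to 75700 and 54800 to 69300 CPM at 6 hours, and 34400 to 44300 and 39100 to 75600 CPM at 24 hours. Its part in the members' changes was not tested. The 0-hour libraries have a number series of their own in the labels, so a difference in handling and the effect of PHx cannot be told apart in any comparison with 0 hours. In bulk tissue, fewer cells of a type and less RNA per cell cannot be told apart either.

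At 24 hours, 3 libraries stood apart on the first principal component of the 1000 most variable genes other than the members (43.6% of their variance): WT replicates 3 and 4 and SIRTintKO replicate 5 lay at 51.4, 58.3 and 40.9, and the other 8 lay between -35.3 and -10.3. The members' main values at 24 hours are given with and without them. These 3 libraries are adjacent in the number series of the labels. WT replicate 2, which comes just before them in that series, did not stand apart. WT replicate 1 comes just after SIRTintKO replicates 1 to 4 and away from the other WT livers at 24 hours. The part of this order in the differences at 24 hours, between genotypes or between livers, was not tested. The same 3 libraries had 10.5, 5.13 and 17.2 CPM summed over the 4 of 6 neutrophil markers that passed the filter, against 49.8 to 938 CPM in the other 8. Their cholangiocyte marker sums, at 64.5, 78.8 and 53.7 CPM, were also below the 103 to 482 CPM of the others. Summed over all 6 neutrophil markers, *S100a8* and *S100a9* among them, the groups ranged from 2.43 to 17.1 CPM at 0 hours, where *Camp* was at 0 in both genotypes and *Ly6g* in SIRTintKO livers, from 4.31 to 57 CPM at 6 hours and from 5.28 to 939 CPM at 24 hours. The 6 cholangiocyte markers summed to 36.7 to 61.9 CPM at 0 hours and to 53.8 to 483 CPM at 24 hours. The part of these cells in the members' levels was not tested.

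Before surgery the levels of both genotypes overlapped for each of the 7 members. In WT livers *Hmgcs1* lay between 143 and 264 CPM (median 207), and in SIRTintKO livers between 106 and 223 CPM (median 156). *Insig1* ran from 233 to 341 CPM (median 290) and from 171 to 357 CPM (median 256). *Srebf2* ran from 33.9 to 45.4 CPM (median 38.4) and from 29.7 to 39.5 CPM (median 35.5). The spread within a group reached at most 2.13-fold (highest over lowest liver) for any of them. *Sqle*, *Idi1*, *Cyp51* and *Lss* had WT medians of 50.6, 178, 121 and 40.1 CPM and SIRTintKO medians of 48.7, 147, 110 and 36.4 CPM. Differences between genotypes (SIRTintKO minus WT) ran from -0.29 to -0.07 on the log2 scale, all with an edgeR adjusted p of 1, and the 95% interval for *Hmgcs1* was -1.27 to 0.70. No gene of 14980 was called between the genotypes at 0 hours (0%). At an unadjusted p under 0.05 the count was 161 genes, none of them a member, and DESeq2 called 6 genes, none of them a member.

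**Figure D2:**
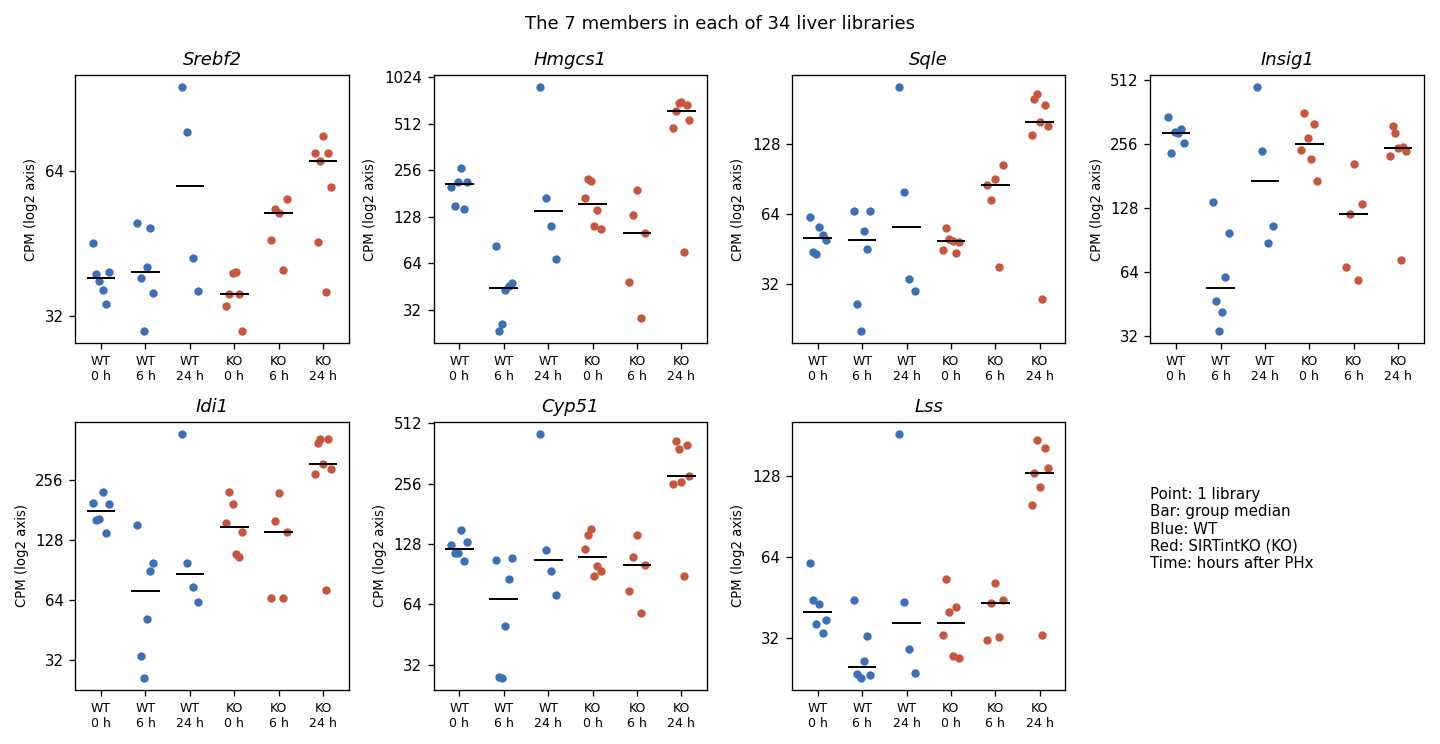
Levels of the 7 members in the 34 libraries (y axis, CPM on a log2 axis; x axis, genotype and hours after PHx; point, 1 library; bar, group median). The *Hmgcs1* and *Insig1* panels show all 6 WT livers at 6 hours under the WT livers at 0 hours, and the 24-hour panels show WT replicate 1 high and SIRTintKO replicate 5 low, with *Hmgcs1* at 886 and 76.3 CPM.

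At 6 hours after PHx, the first enzyme of the group and the feedback gene fell steeply in WT livers. *Hmgcs1* was at 23.3 to 83.4 CPM (median 44.4), with all 6 livers under the lowest WT liver at 0 hours, a log2 change of -2.14 ± 0.51 (SE; adjusted p = 0.00118). *Insig1* was at 33.8 to 137 CPM (median 54), again with no overlap, and changed by -2.04 ± 0.38 (adjusted p = 8.22e-05). *Idi1* was at 25.8 to 152 CPM (median 70.2) and changed by -1.26 ± 0.44 (adjusted p = 0.0232), with a liver in each group inside the range of the other. Here and in what follows, adjusted p is from edgeR's quasi-likelihood test over all genes, and a gene was called at an adjusted p under 0.05 with a log2 change over 1 in size. These 3 of 7 members were called lower and none higher, where 8.4% of all genes tested were called lower and 7.17% higher.

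The remaining members did not pass in WT livers at 6 hours. *Cyp51*, at 27.4 to 108 CPM (median 67.6), had a log2 difference from 0 hours of -0.88 ± 0.38 (adjusted p = 0.0676), and *Lss*, at 22.7 to 44.2 CPM (median 24.9), of -0.56 ± 0.35 (adjusted p = 0.222). *Sqle* spread widely, from 20 to 66.1 CPM (median 49.5), around a difference of -0.14 ± 0.38. *Srebf2*, at 29.8 to 49.8 CPM (median 39.4), differed by 0.07 ± 0.18, with a 95% interval of -0.31 to 0.44. Without WT replicate 2 or 3 at 6 hours the *Idi1* change was -1.13 or -1.10 and was no longer called (adjusted p = 0.0536 and 0.0529). Without replicate 1 or 6 *Cyp51* was called lower, at -1.08 or -1.06 (adjusted p = 0.0347 and 0.0369).

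In SIRTintKO livers at 6 hours the estimates for *Hmgcs1*, *Insig1* and *Idi1* lay closer to their 0-hour levels, although the difference from WT livers did not pass its own test, given further on. *Insig1* was the single member called lower: the 5 livers had 67.5, 120, 207, 59 and 134 CPM, a change of -1.16 ± 0.39 (adjusted p = 0.0186). Replicate 3 lay inside the 0-hour range and the other 4 below it. The background was 8.7% of genes called lower and 7.86% called higher. Leaving out replicate 4 at 6 hours took *Insig1* to -1.03 and ended its call, although it kept its direction. *Hmgcs1* had 48.2, 132, 192, 28.2 and 100 CPM, with 2 livers inside the 0-hour range and 3 below it, and its difference of -0.69 ± 0.51 did not pass (adjusted p = 0.293). *Idi1* (65.1 to 219 CPM, -0.25 ± 0.45), *Cyp51* (57.8 to 142 CPM, -0.26 ± 0.40) and *Lss* (31.6 to 51.3 CPM, 0.13 ± 0.37) also overlapped their 0-hour groups.

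*Srebf2* and *Sqle* lay on the other side of 0 in these livers. *Srebf2* rose by 0.48 ± 0.19 on the log2 scale (adjusted p = 0.0472), under the size needed for a call. Its 5 livers, at 46.1, 53.3, 52.3, 39.8 and 56 CPM, all lay above the 6 livers at 0 hours, the highest of which was at 39.5 CPM. *Sqle* had 85.2, 73.7, 90.6, 37.9 and 104 CPM, so that 4 of the 5 livers lay above the 0-hour range and replicate 4 lay under it, and its difference of 0.69 ± 0.40 did not pass (adjusted p = 0.176).

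**Figure D3:**
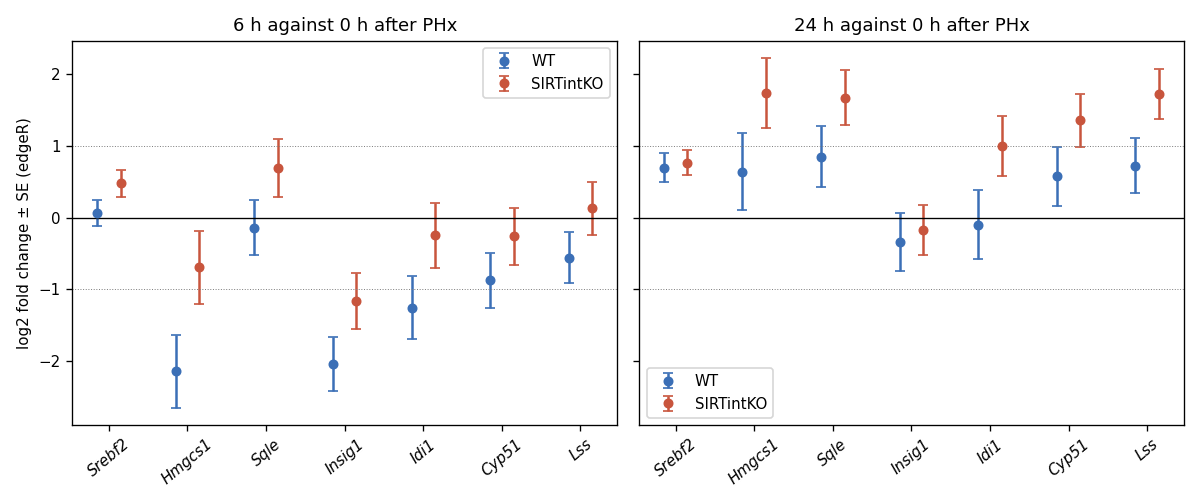
Log2 fold changes from 0 hours at 6 hours (left) and 24 hours (right) in WT (blue) and SIRTintKO (red) livers (y axis, edgeR log2 fold change; bars, SE; dotted lines, the size needed for a call). *Hmgcs1* and *Insig1* are lowest at 6 hours in WT livers, and at 24 hours *Hmgcs1*, *Sqle*, *Cyp51* and *Lss* of SIRTintKO livers lie above the upper dotted line.

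By 24 hours, 4 of the 5 enzymes were called higher than at 0 hours in SIRTintKO livers. *Hmgcs1* had 480, 619, 701, 703, 76.3, 673 and 538 CPM, so 6 of the 7 livers were at more than the highest 0-hour value and replicate 5 was under the lowest, with a change of 1.74 ± 0.49 (3.34-fold, adjusted p = 0.00363). *Sqle* had 140, 201, 210, 159, 27.5, 189 and 153 CPM and changed by 1.67 ± 0.38 (3.18-fold, adjusted p = 0.000628). *Lss* had 100, 132, 174, 116, 33, 163 and 137 CPM and changed by 1.72 ± 0.35 (3.3-fold, adjusted p = 0.000177). In each of these genes the same single liver, replicate 5, kept the groups from separating. *Cyp51* had 254, 418, 381, 260, 88.4, 399 and 280 CPM and changed by 1.36 ± 0.37 (2.56-fold, adjusted p = 0.00318).

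The other members of the SIRTintKO livers at 24 hours were not called. *Idi1* had 274, 393, 409, 308, 71.3, 409 and 289 CPM, and its change of 1.00 ± 0.42 (adjusted p = 0.0479) was just under the size needed. *Srebf2* had 69.7, 45.5, 67.1, 75.8, 35.8, 69.9 and 59.3 CPM and rose by 0.77 ± 0.18 (adjusted p = 0.000716). *Insig1* lay around its 0-hour level, with 224, 311, 290, 244, 73.2, 248 and 238 CPM and a difference of -0.17 ± 0.35 (95% interval -0.89 to 0.54, adjusted p = 0.698). The 4 of 7 members called higher stood against 11.9% of all genes called higher, and 11.1% were called lower. Without the 3 libraries that stood apart, the 4 enzymes changed by 1.97 (*Hmgcs1*), 1.90 (*Sqle*), 1.93 (*Lss*) and 1.56 (*Cyp51*), *Idi1* joined them at 1.21 (adjusted p = 0.00517), and *Insig1* was at 0.02.

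In WT livers at 24 hours the members spread so widely that none was called. *Hmgcs1* had 886, 170, 111 and 68.6 CPM in replicates 1 to 4, and its difference from 0 hours was 0.64 ± 0.53 (adjusted p = 0.368). *Sqle* had 225, 79.2, 33.6 and 29.7 CPM (0.85 ± 0.42, adjusted p = 0.119). *Cyp51* had 455, 120, 93.9 and 71.1 CPM (0.58 ± 0.42, adjusted p = 0.294). Replicate 1 lay above the whole 0-hour range of each, whereas replicates 3 and 4 lay below it. *Lss* had 184, 43.8, 29.2 and 23.8 CPM (0.72 ± 0.39, adjusted p = 0.147), *Idi1* had 434, 97.4, 74.3 and 61.9 CPM (-0.10 ± 0.48, adjusted p = 0.891), and *Insig1* had 475, 237, 87.8 and 105 CPM (-0.34 ± 0.41, adjusted p = 0.548). The order of the 4 livers was thus almost the same from gene to gene. *Srebf2*, at 95.7, 77.1, 42.1 and 36 CPM, was the only member to rise past the adjusted threshold (0.70 ± 0.20, adjusted p = 0.00836), without reaching the size for a call. Without WT replicate 1, *Srebf2* was at 0.43 and did not pass that threshold (edgeR adjusted p = 0.117).

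The count of 0 members in this comparison stood against 8.32% of genes called higher and 7.4% called lower, and 1 member, *Srebf2*, had an unadjusted p under 0.05, against 43.9% of all genes. DESeq2 also called 0 members. Which libraries were kept decided the answer. Without the 3 libraries that stood apart, which leaves WT replicates 1 and 2, 5 of 7 members were called higher, with *Sqle* at 1.61, *Lss* at 1.45, *Hmgcs1* at 1.44, *Cyp51* at 1.24 and *Srebf2* at 1.19, beside 14.5% of all genes. Without WT replicate 1 alone, 0 were called, beside 6.29% of all genes called higher and 5.04% lower, and *Hmgcs1*, *Sqle*, *Cyp51* and *Lss* lay at -0.75, -0.09, -0.38 and -0.38.

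In most of the 11 libraries at 24 hours, the 5 enzymes lay on the same side of their 0-hour means, with WT replicate 2 as the exception. In WT replicate 1 and in 6 SIRTintKO livers, 5 of 5 enzymes were above the mean of their own genotype at 0 hours, by 1.93 on average (mean log2 difference) in the WT liver and by 1.34 to 1.95 in the 6 SIRTintKO livers. In WT replicates 3 and 4 and SIRTintKO replicate 5, 0 of 5 were above it, with means of -0.71, -1.07 and -0.68. WT replicate 2 lay between, with 2 of 5 enzymes above, a mean of -0.07 and single enzymes from -0.86 to 0.65. The 3 livers with no enzyme above the 0-hour mean are those that stood apart on the first principal component. Only the members were kept out of that component, and genes that vary with them, such as *Mvd* and *Msmo1*, were not. The match is therefore not independent of the members. Leaving out livers with low enzymes also raises the enzymes' group means at 24 hours by construction, so those fits are no independent check. Hepatocyte marker sums did not separate these 3 livers, which had 37800, 44300 and 40800 CPM, inside the 34400 to 75600 CPM of the other 8.

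**Figure D4:**
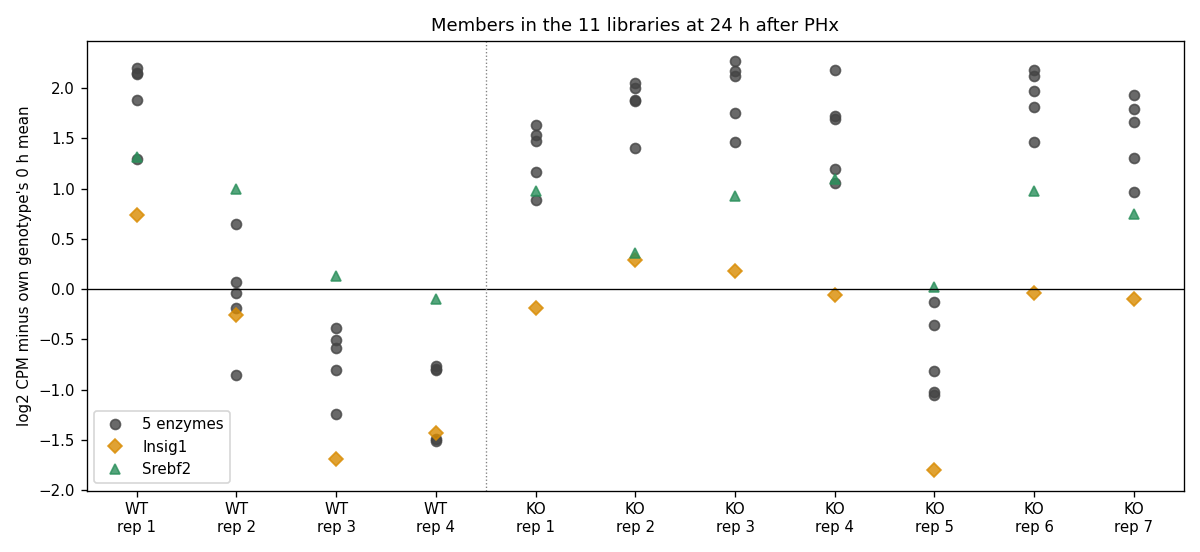
The 7 members in each library at 24 hours, as log2 CPM minus the 0-hour mean of the same genotype (y axis; x axis, WT and SIRTintKO (KO) replicates; circles, the 5 enzymes; diamonds, *Insig1*; triangles, *Srebf2*). All circles lie above 0 in WT replicate 1 and in 6 SIRTintKO livers and below 0 in WT replicates 3 and 4 and SIRTintKO replicate 5, and *Insig1* lies below the enzymes' mean in every library.

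From 6 to 24 hours the estimates for all 7 members were above 0 in both genotypes. In WT livers, 4 of 7 were called higher, with *Hmgcs1* at 2.79 ± 0.55 (adjusted p = 0.000806), *Insig1* at 1.70 ± 0.40 (adjusted p = 0.00406), *Cyp51* at 1.45 ± 0.41 (adjusted p = 0.0156) and *Lss* at 1.28 ± 0.39 (adjusted p = 0.0215). The background was 4.44% of genes called higher and 2.72% lower. Without WT replicate 1 at 24 hours none of the 4 was called, and the *Hmgcs1* difference was 1.41 (adjusted p = 0.0514). In SIRTintKO livers, 4 of 7 were called higher, beside 6.7% of all genes (3.91% lower). These were *Hmgcs1* at 2.43 ± 0.54 (adjusted p = 0.00123), *Cyp51* at 1.62 ± 0.40 (adjusted p = 0.00339), *Lss* at 1.59 ± 0.37 (adjusted p = 0.00211) and *Idi1* at 1.25 ± 0.45 (adjusted p = 0.0382). The *Idi1* call ended without SIRTintKO replicate 1, 4 or 5 at 6 hours or replicate 2, 3 or 6 at 24 hours, where its change ran from 1.10 to 1.29 (adjusted p of 0.0574 to 0.0999). *Insig1* (0.99 ± 0.38, adjusted p = 0.0501) and *Sqle* (0.98 ± 0.40, adjusted p = 0.0635) fell just short. Without the 3 libraries that stood apart, 6 of 7 were called higher, *Sqle* (1.2) and *Insig1* (1.18) among them, beside 8.98% of all genes. The comparisons of 6 and 24 hours with 0 hours and with each other share libraries, so their values are not independent of each other.

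Whether the genotypes differed was tested at each time. At 6 hours all 7 members were higher in SIRTintKO than in WT livers by estimate, from 0.29 (*Srebf2*) to 1.16 ± 0.51 (*Hmgcs1*), with a median of 0.76 against 0.01 over all genes. None was called (edgeR adjusted p of at least 0.761), all groups overlapped, and no gene of the whole table was called either (0%). *Hmgcs1* alone of the members had an unadjusted p under 0.05 (976 genes did in all), and DESeq2 called 9 genes, none of them a member. The interaction at 6 hours, which is the SIRTintKO change from 0 hours minus the WT change, had estimates from 0.41 to 1.45 for the members. Again 0 members and 0% of genes were called, *Hmgcs1* alone had an unadjusted p under 0.05 (against 3.05% of all genes), and DESeq2 called 2 genes, 0 of them members. For *Hmgcs1* the 95% interval of the interaction was 0.02 to 2.88.

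At 24 hours 6 of 7 members were higher in SIRTintKO livers by estimate, from 0.04 (*Insig1*) to 0.88 ± 0.48 (*Idi1*), and *Srebf2* was at -0.05. None was called, beside 2.68% of all genes. *Lss* alone had an unadjusted p under 0.05 (0.80 ± 0.39, edgeR adjusted p = 0.21), against 23.4% of all genes, and DESeq2 also called 0 members. The interaction at 24 hours against 0 hours called 0 members (0.00668% of genes, a single gene), and that of 24 against 6 hours called 0 members (0.334% of genes). At an unadjusted p under 0.05 both counts for the members were 0, against 12.7% and 19.7% of all genes. By DESeq2 both counts for the members were also 0, where 96 and 301 genes were called in all.

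The comparison of genotypes at 24 hours turned on WT replicate 1. Without it 5 of 7 members were called higher in SIRTintKO livers: *Hmgcs1* at 2.19 (adjusted p = 0.0117), *Idi1* at 1.96 (adjusted p = 0.0121), *Lss* at 1.90 (adjusted p = 0.00176), *Sqle* at 1.67 (adjusted p = 0.0133) and *Cyp51* at 1.62 (adjusted p = 0.0128). That setting also called 2.45% of all genes higher. Without the 3 libraries that stood apart, the 5 enzymes differed by 0.22 (*Sqle*) to 0.40 (*Idi1*), *Insig1* by -0.44 and *Srebf2* by -0.41, and 0 members were called. Of all genes, 4.89% were called higher and 3.29% lower in that setting. Across these settings the *Hmgcs1* difference ran from 0.25 to 2.19.

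*Insig1* lay below the enzymes' mean after surgery. In each library the log2 difference of *Insig1* from its 0-hour mean was set against the mean difference of the 5 enzymes. The 0-hour libraries centre on 0 by construction and are no baseline. After PHx all 22 libraries lay below 0, with medians of -0.95 and -1.09 at 6 hours and of -0.67 and -1.63 at 24 hours in WT and SIRTintKO livers. This held both where the enzymes' mean was down and where it was up. Single enzymes could lie lower still: *Insig1* was below all 5 in 16 of the 22 libraries, and *Hmgcs1* lay below it in 5 and *Idi1* in 2. In SIRTintKO livers at 24 hours the range was -1.95 to -1.12.

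*Insig2*, which encodes the related INSIG protein, moved the other way at 6 hours. It had 154 to 426 CPM (median 298) in WT and 234 to 301 CPM (median 247) in SIRTintKO livers at 0 hours. At 6 hours it had 365 to 763 CPM (median 539) in WT livers, a rise of 0.94 ± 0.34 (adjusted p = 0.0273), and 281 to 1120 CPM (median 307) in SIRTintKO livers, a rise of 1.26 ± 0.35 (adjusted p = 0.00523). Of these 5 SIRTintKO livers, 3 lay at 281 to 307 CPM, near the highest 0-hour value of 301 CPM, and the other 2 at 1088 and 1120 CPM. At 24 hours the SIRTintKO livers had 364 to 1030 CPM (median 879), all above their 0-hour range, a rise of 1.54 ± 0.33 (adjusted p = 0.000336). The WT livers at 24 hours had 262 to 662 CPM and a difference of 0.36 ± 0.37 (0.75 without the 3 libraries that stood apart, adjusted p = 0.153), and the difference between genotypes at 24 hours did not pass (1.00 ± 0.38, adjusted p = 0.103). *Scap*, the escort of SREBP2, stayed within narrow limits, with group medians of 65.7 to 81.2 CPM, and fell by 0.34 ± 0.12 in WT livers at 6 hours (adjusted p = 0.0288) without a call.

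The members varied together from liver to liver. Over the 34 libraries, which share time and genotype, Pearson correlations of log2 CPM between pairs of members ran from 0.32 (*Srebf2* with *Insig1*) to 0.95 (*Idi1* with *Cyp51*). After subtraction of group means, the 15 pairs without *Srebf2* ran from 0.83 to 0.97 and the 6 pairs with *Srebf2* from 0.68 to 0.79. These are descriptions over libraries that also share scaling and the set of 24-hour livers that stood apart. Among the genes whose log2 CPM was most like the members' mean over the 34 libraries were *Mvd* (0.97; 0.95 after subtraction of group means), *Msmo1* (0.97; 0.95), *Fdft1* (0.95; 0.97), *Nsdhl* (0.92; 0.91) and *Erg28* (0.90; 0.84). The first 4 of these are enzymes of the same pathway, and *Erg28* is a scaffold protein of sterol demethylation.

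A list of 15 other enzymes of cholesterol synthesis gave a fuller view. In WT livers at 6 hours, 9 of 15 were called lower and 0 higher (median -1.13 against 0.02 over all genes). Of all genes, 8.4% were called lower and 7.17% higher. The largest changes were in *Sc5d*, a late desaturase (-2.56 ± 0.21, adjusted p = 1.17e-10), *Fdft1*, squalene synthase (-1.76 ± 0.42), *Acat2*, a thiolase at the entry (-1.67 ± 0.27), and *Pmvk*, phosphomevalonate kinase (-1.65 ± 0.33). In SIRTintKO livers at 6 hours 2 were called lower, *Sc5d* (-1.76 ± 0.21) and *Acat2* (-1.05 ± 0.28), and 1 higher, *Hsd17b7*, a sterol ketoreductase (1.07 ± 0.33). Of all genes, 8.7% were called lower and 7.86% higher in these livers. *Sc5d* lay at 305 to 438 CPM in WT livers at 0 hours and at 45.5 to 95.1 CPM at 6 hours. In SIRTintKO livers it lay at 190 to 398 CPM and then at 68.2 to 128 CPM, with no overlap in either genotype.

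At 24 hours against 0 hours, 5 of the 15 were called higher and 1 lower in SIRTintKO livers (median 0.73 against 0.04 over all genes). Of all genes, 11.9% were called higher and 11.1% lower. *Mvd*, mevalonate diphosphate decarboxylase (1.63 ± 0.44), *Hsd17b7* (1.55 ± 0.31) and *Msmo1*, a sterol methyl oxidase (1.38 ± 0.42), had the largest changes, and *Fdft1* was also among those called (1.16 ± 0.40). *Ebp*, a sterol isomerase named after its values were seen, was called lower (-1.08 ± 0.17). In WT livers 0 were called higher and 2 lower, *Sc5d* (-1.25 ± 0.23) and *Tm7sf2*, a sterol reductase (-1.13 ± 0.20), beside 8.32% and 7.4% of all genes. Without the 3 libraries that stood apart, 5 were called higher and 3 lower in WT livers and 6 higher and 1 lower in SIRTintKO livers, beside 14.5% higher and 16.4% lower (WT) and 14.2% and 11.8% (SIRTintKO) of all genes. In SIRTintKO livers at 24 hours *Ebp* was thus called lower where 4 of 7 members were called higher, although *Insig1* was at -0.17. In WT livers, where *Sc5d* was called lower, no member was called, and *Idi1* (-0.10) and *Insig1* (-0.34) also lay below 0.

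Between 6 and 24 hours, 7 of the 15 were called higher in WT livers and 8 in SIRTintKO livers, and 0 were called lower in either. Of all genes, 4.44% (WT) and 6.7% (SIRTintKO) were called higher, and 2.72% and 3.91% lower. *Fdft1* (2.11 ± 0.45 and 1.95 ± 0.44), *Mvd* (1.85 ± 0.50 and 1.92 ± 0.48), *Msmo1* (1.53 ± 0.47 and 1.66 ± 0.45) and *Mvk*, mevalonate kinase (1.37 ± 0.32 and 1.66 ± 0.31), had the largest changes in WT and SIRTintKO livers. Without WT replicate 1 the WT count was 2, beside 2.76% of all genes called higher. Between genotypes none of the 15 was called by edgeR or DESeq2 at 0, 6 or 24 hours. By edgeR, 0%, 0% and 2.68% of all genes were called. At an unadjusted p under 0.05 there were 0, 1 and 5 of the 15, against 1.07%, 6.52% and 23.4% of all genes. Without WT replicate 1, 9 of 15 were called higher in SIRTintKO livers at 24 hours, beside 2.45% of all genes. Without the 3 libraries that stood apart 0 were, beside 4.89% of all genes.

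Of 8 genes of lipoprotein cholesterol uptake and lysosomal release, 2 were called lower in WT livers at 6 hours, *Lipa*, the lysosomal acid lipase (-1.27 ± 0.17), and *Stard4*, a sterol carrier (-1.22 ± 0.28), and 1 in SIRTintKO livers, *Lipa* (-1.07 ± 0.18), beside 8.4% and 8.7% of all genes called lower. *Lipa* lay at 135 to 160 CPM in WT livers at 0 hours and at 52.4 to 81.9 CPM at 6 hours. In SIRTintKO livers it lay at 89.9 to 191 CPM and then at 51.4 to 85 CPM, again with no overlap. At 24 hours against 0 hours *Mylip*, a ligase that acts on lipoprotein receptors, was called lower in WT livers (-1.02 ± 0.31), beside 7.4% of all genes. In SIRTintKO livers 0 of 8 were called by edgeR or DESeq2, beside 11.9% of all genes called higher and 11.1% lower by edgeR. At an unadjusted p under 0.05 there were 4 of 8, against 56.1% of all genes. From 6 to 24 hours *Lipa* was called higher in both genotypes (1.00 ± 0.18 and 1.25 ± 0.17) and *Stard4* in WT livers (1.33 ± 0.30). Of all genes, 4.44% (WT) and 6.7% (SIRTintKO) were called higher. Without the 3 libraries that stood apart, *Mylip* was at -1.29 in WT livers at 24 against 0 hours, and from 6 to 24 hours *Lipa* was at 0.59 and no longer called in WT livers, at 1.30 in SIRTintKO livers, and *Stard4* at 1.88 in WT livers. None of the 8 was called between genotypes by either tool. At 0, 6 and 24 hours 0, 0 and 2 had an unadjusted p under 0.05, against 1.07%, 6.52% and 23.4% of all genes.

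Of 8 genes of LXR, sterol efflux and esterification, only *Abca1*, the cholesterol efflux transporter, was called at 6 hours. It was called higher in both genotypes, beside 7.17% (WT) and 7.86% (SIRTintKO) of all genes. It had 53 to 89.3 CPM in WT and 49.7 to 89.1 CPM in SIRTintKO livers at 0 hours and rose at 6 hours to 174 to 270 CPM (1.60 ± 0.28) and 180 to 253 CPM (1.59 ± 0.29), with no overlap. At 24 hours it had 95.4 to 342 CPM in WT livers, still all above 0 hours (1.64 ± 0.30), and 50 to 189 CPM in SIRTintKO livers (0.57 ± 0.26, adjusted p = 0.0679). The genotypes differed at 24 hours by -1.06 ± 0.29 (adjusted p = 0.027), beside 2.68% of all genes called, although the groups overlapped. The difference was -0.83 without WT replicate 1 (adjusted p = 0.079) and -1.60 without the 3 libraries that stood apart (adjusted p = 0.000332). *Soat2*, which esterifies cholesterol, was called higher at 24 hours in WT (1.11 ± 0.26) and SIRTintKO livers (1.34 ± 0.23), and was at 1.71 and 1.47 without the 3 libraries that stood apart. At 24 against 0 hours, 2 of 8 were called higher in WT and 1 in SIRTintKO livers, beside 8.32% and 11.9% of all genes. From 6 to 24 hours 0 of 8 were called in WT livers. In SIRTintKO livers 1 was called lower by edgeR (0 by DESeq2), beside 3.91% of all genes.

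Of 11 genes of SREBP processing and sterol sensing, 0 were called in WT livers at 6 or 24 hours against 0 hours by edgeR or DESeq2 (8 and 3 at an unadjusted p under 0.05), and *Insig2* was the 1 called in SIRTintKO livers at each time. In WT livers at 6 and 24 hours, 7.17% and 8.32% of all genes were called higher and 8.4% and 7.4% lower. An unadjusted p under 0.05 was found there for 45.6% and 43.9% of all genes. In SIRTintKO livers 7.86% and 11.9% of all genes were called higher at 6 and 24 hours. *Erlin1*, an endoplasmic reticulum protein of sterol sensing, was called higher from 6 to 24 hours in WT livers (1.00 ± 0.19), beside 4.44% of all genes. It was at 0.68 and not called without the 3 libraries that stood apart. Of 5 genes of the isoprenoid branches, which lead from the mevalonate pathway to dolichol, ubiquinone and prenyl groups, 0 were called in any of the 12 comparisons by edgeR or DESeq2, and their medians were 0.50 and 0.48 at 6 hours in WT and SIRTintKO livers. By edgeR, the share of all genes called in 1 direction reached at most 11.9% in any of the 12 comparisons. At an unadjusted p under 0.05, 4 of the 5 passed at 6 hours in each genotype, against 45.6% (WT) and 46.9% (SIRTintKO) of all genes.

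**Figure D5:**
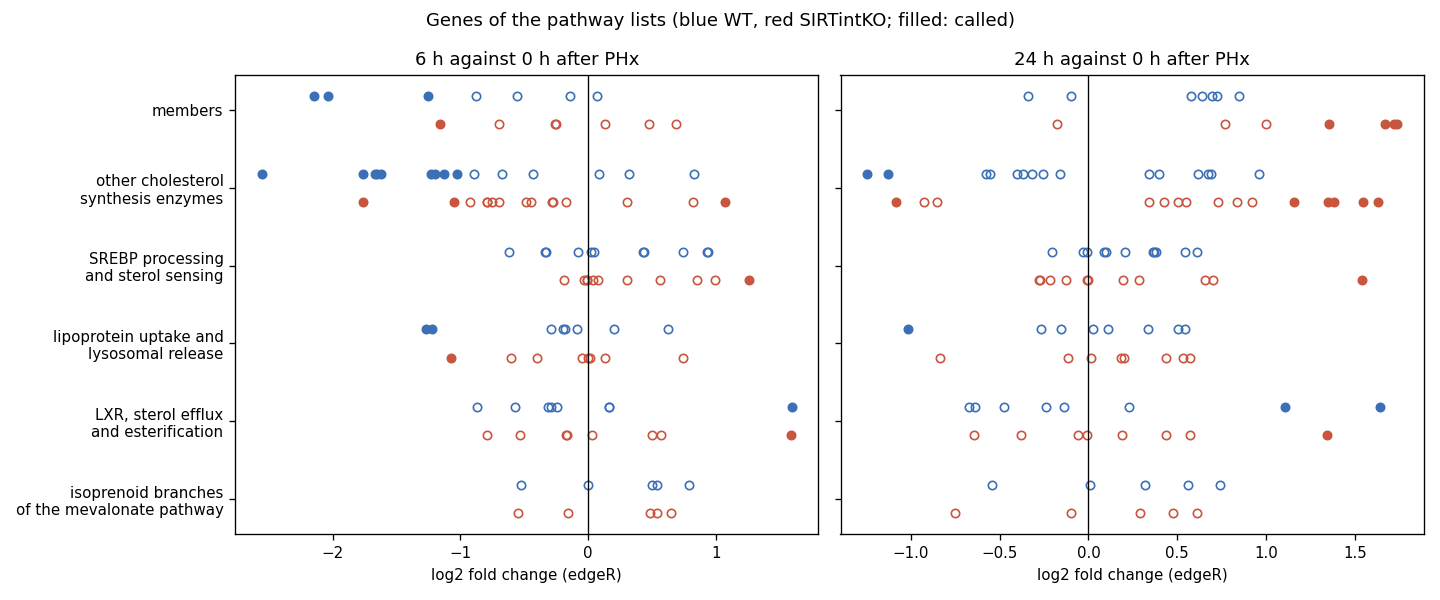
Log2 fold changes from 0 hours of the members and of 5 pathway lists at 6 hours (left) and 24 hours (right), with 1 circle per gene (x axis, edgeR log2 fold change; rows, lists; blue, WT; red, SIRTintKO; filled, called). Filled circles lie mostly left of 0 at 6 hours in WT members and enzymes, where 3 of 7 and 9 of 15 are called lower, and right of 0 at 24 hours in SIRTintKO, where 4 of 7 and 5 of 15 are called higher. Of all genes, 8.4% are called lower in the first case and 11.9% higher in the second.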

How the data were processed

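Stranded mRNA libraries of whole liver were sequenced by the authors as 100-base read pairs. Per the submitters' processing notes, STAR and Salmon were used with build GRCm39. The authors deposited expected counts per gene, not normalized, in 35 columns, of which 1 matched no labelled sample and was not used. Of the estimated counts deposited, 4.97% were not whole, and all were rounded. The letter x was missing from the table's symbols, so 1255 symbols were restored through gene identifiers with GENCODE vM21.

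With edgeR 4.0.16 in R 4.3.3, libraries were scaled by TMM, genes filtered with filterByExpr by group, and a quasi-likelihood model with 1 mean per group was fitted to all 34 libraries, in 12 comparisons. P-values were Benjamini-Hochberg adjusted over the 14980 genes tested. Log2 CPM values carry a prior count of 2. The labels call the samples biological replicates, and no 2 libraries of a group were near-identical (chi-square per gene of at least 14.73). Totals per library ranged from 14892122 to 23480492. The fits were tested on simulated data.

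The members and all lists were chosen with earlier results of these data known. Named by rule were the 7 members, *Insig2*, *Scap*, *Msmo1*, up to 4 called genes with the largest change per list and comparison, and the 8 genes most like the members; 3 of these 8 and 1 called gene of a list are not reported here. Alternatives were DESeq2 1.42.0, edgeR with the size factors of DESeq2, a filter of at least 1 count per gene, only the groups compared, a replicate block, each library left out in turn and, chosen after seeing the data, 3 libraries at 24 hours left out. Promoter sequences are from RefSeq (GRCm38.p6); the table held 6 of the 7 members.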

Additional observations from a re-analysis of the deposited data

Results flagged for a closer look

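In 8 of 42 sets of values (a member in a group of 4 to 7 libraries), the highest or lowest library lay farther from the others than Dixon's 95% critical value allows. For normally distributed values, chance gives about 1 such set in 20. The test was run on CPM, which need not be normally distributed, and whether the flags hold on log2 CPM was not tested. The members vary together, so the 8 sets are not separate events. WT replicate 1 at 24 hours was the high library for *Hmgcs1* (886 CPM), *Idi1* (434 CPM), *Cyp51* (455 CPM) and *Lss* (184 CPM). SIRTintKO replicate 5 at 24 hours was the low library for *Hmgcs1* (76.3 CPM), *Sqle* (27.5 CPM), *Insig1* (73.2 CPM) and *Idi1* (71.3 CPM). The cause of either was not tested.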

How the results depend on the processing

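The members called lower at 6 hours in WT livers and higher at 24 hours in SIRTintKO livers held under most alternatives. Counts of members called higher moved in WT livers at 24 hours against 0 hours from 0 to 5 when the 3 libraries set apart were left out, and in WT livers at 24 against 6 hours from 4 to 2 with a replicate block, 1 with only the groups compared, and 7 with the 3 libraries left out. In SIRTintKO livers at 24 against 6 hours the 4 called ran from 3 (replicate block, or every gene of at least 1 count) to 6 (DESeq2, the 3 libraries left out, or SIRTintKO replicate 5 at 24 hours left out). With single libraries left out, counts of members called higher ranged from 0 to 2 (WT, 24 against 0 hours), 0 to 6 (WT, 24 against 6 hours), 0 to 5 (genotypes at 24 hours) and 0 to 1 (interaction, 24 against 0 hours), and the count called lower in SIRTintKO livers at 6 hours from 0 to 1. The cause of these shifts was not tested.

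Replicate numbers did not pair libraries: of 9 pairs of groups, the correlation of deviations was over 0.1 for at most 1 pair of libraries in each. With the replicate block, 79 of 84 member values kept their direction and call. The 3 that lost a call were *Cyp51* (1.33) and *Lss* (1.01) in WT and *Idi1* (1.16) in SIRTintKO livers at 24 against 6 hours. Signs turned for *Srebf2* between genotypes at 24 hours (0.015) and *Sqle* in the interaction of 24 against 6 hours (0.11), and the latter was 0.0052 with DESeq2 and 0.005 with its size factors.

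Leaving out the 3 libraries turned the sign of *Insig1* (0.34) and *Idi1* (0.60) in WT livers at 24 against 0 hours, *Insig1* in SIRTintKO livers (0.02) and between genotypes at 24 hours (-0.44), *Srebf2* (-0.29) and *Insig1* (-0.32) in the interaction of 24 against 0 hours, and *Idi1* (-0.38), *Cyp51* (-0.29) and *Lss* (-0.20) in that of 24 against 6 hours. Log2 values whose sign turned with single libraries left out ranged, in WT livers at 24 against 0 hours, from -0.75 to 0.97 (*Hmgcs1*), -0.088 to 1.14 (*Sqle*), -1.19 to 0.18 (*Idi1*), -0.38 to 0.84 (*Cyp51*) and -0.38 to 1.01 (*Lss*), and from -0.018 to 0.12 for *Srebf2* in WT livers at 6 hours. Between genotypes at 24 hours they ranged from -0.25 to 0.20 (*Srebf2*) and -0.25 to 0.67 (*Insig1*). The interaction of 24 against 0 hours ranged from -0.12 to 0.31 (*Srebf2*) and -0.13 to 0.79 (*Insig1*), and that of 24 against 6 hours from -0.69 to 1.04 (*Hmgcs1*), -0.31 to 0.92 (*Sqle*), -0.25 to 1.17 (*Idi1*) and -0.11 to 1.11 (*Cyp51*).

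Over all genes, calls between genotypes at 24 hours numbered 402, 561 with DESeq2, 287 with every gene of at least 1 count and 168 with the block. The interaction of 24 against 6 hours called 50 genes, 301 with DESeq2, 16 with every gene of at least 1 count and 0 with the block, and that of 24 against 0 hours called 1, 96, 8 and 0.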
